A study of Homo sapiens with 34 samples.

Results

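The MYC, MAX and MXD network was followed through 10 genes chosen by symbol: *MYC*, *MYCN*, *MAX*, *MLX*, *MXD1*, *MXI1*, *MXD3*, *MXD4*, *MNT* and *MGA*. All 10 were listed in at least 1 of the 6 deposited comparisons, which together name 17587 genes, and 9 of them were among the 13307 genes listed in all 6. *MYCN* appeared in 2 comparisons. RNA came from 3 human B-cell acute lymphoblastic leukemia (B-ALL) cell lines that carry different driver fusions, NALM-6 with ETV6-PDGFRB, RS4;11 with MLL-AF4, and BV-173 with BCR-ABL. In each line a lentiviral shRNA against *CCND3*, the gene of cyclin D3, was set against a scrambled shRNA in transduced cells sorted on day 4. In separate cultures, 3 days in 1 µM palbociclib, an inhibitor of the cyclin D kinases CDK4 and CDK6, were set against the solvent DMSO. The 34 samples form 12 groups, of which 10 hold 3 samples and 2 hold 2 samples, namely NALM-6 with *CCND3* shRNA and BV-173 with DMSO. Each line is a single established line, the knockdown rests on 1 hairpin, and all groups grew in the same medium.

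The deposited tables give 1 level per gene and group, scaled within each pair of groups, so neither an SD between replicates nor a depth per sample can be given. Within a line the 2 levels were therefore compared as a log2 ratio of (level + 1), without a test. The 3 lines served as the replicates of a treatment in a limma fit over all 13307 genes, with Benjamini-Hochberg adjusted p-values and a threshold of 0.05. *CCND3* itself stood at 20.7% to 31.1% of its scrambled control level after knockdown and at 76.0% to 81.8% of its DMSO level with palbociclib. The B-lineage markers *CD79A*, *CD79B*, *PAX5*, *EBF1*, *VPREB1*, *CD22* and *BLNK* were listed in every comparison, at group levels from 75.1 in *BLNK* to 22781 in *CD22*. Of 4 T-lineage markers 1 was listed in every comparison and none exceeded a level of 7.28, and the 3 erythroid markers stayed at or under 0.820. The 4 myeloid markers reached 1614, in *CD33*, and the 3 stromal markers reached 216, in *COL1A1*, while *GATA1* and *DCN* were in no table.

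MYC is a basic helix-loop-helix leucine zipper factor that binds DNA only as a heterodimer with MAX, preferentially at the E-box CACGTG, and drives genes of ribosome production, nucleotide synthesis and cell growth. MXD1, MXI1, MXD3 and MXD4, and likewise MNT and MGA, pair with the same MAX and recruit corepressors, so the balance of MAX partners sets the output at shared E-boxes. MXD proteins are best known from cells that leave the cycle and differentiate, with the exception of MXD3, which is known from proliferating cells in S phase. MLX is a MAX-like factor whose main partners, MondoA and ChREBP, respond to glucose.

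*MYC* had the highest level of the network genes in all 12 groups when levels were divided by gene length. Per kilobase of transcript, *MYC* ranged from 1625 to 6575 with a median of 3674, which placed it between the 95.2th and 98.9th percentile of the genes in its table. *MAX* ranged from 916 to 1734 per kilobase and *MLX* from 590.1 to 947 per kilobase. The antagonists lay lower, with median levels per kilobase of 260.4 for *MXD4*, 223 for *MXD3*, 179.6 for *MXI1*, 177 for *MNT*, 84.7 for *MGA* and 62.8 for *MXD1*. As a ratio of the highest to the lowest of the 12 groups, the spread was widest for *MXD3* and *MXD4*, which ran from 55.5 to 1143 and from 77.1 to 853 per kilobase. *MAX* and *MLX* followed *MYC* in most groups, but in NALM-6 with DMSO the order per kilobase was *MYC*, *MXD3*, *MLX*, *MAX*, and with palbociclib *MXD4* stood between *MAX* and *MLX* in NALM-6 and RS4;11. *MYCN*, the *MYC* paralog of neuroblastoma, was listed only in the knockdown comparison of BV-173, at 0.166 and 0.159, and in the palbociclib comparison of RS4;11, at 0.168 and 0.145 (levels, control first), and entered no fit. With 1 level per group, which neighbours in the order differ beyond the spread of samples cannot be given.

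**Figure D1:**
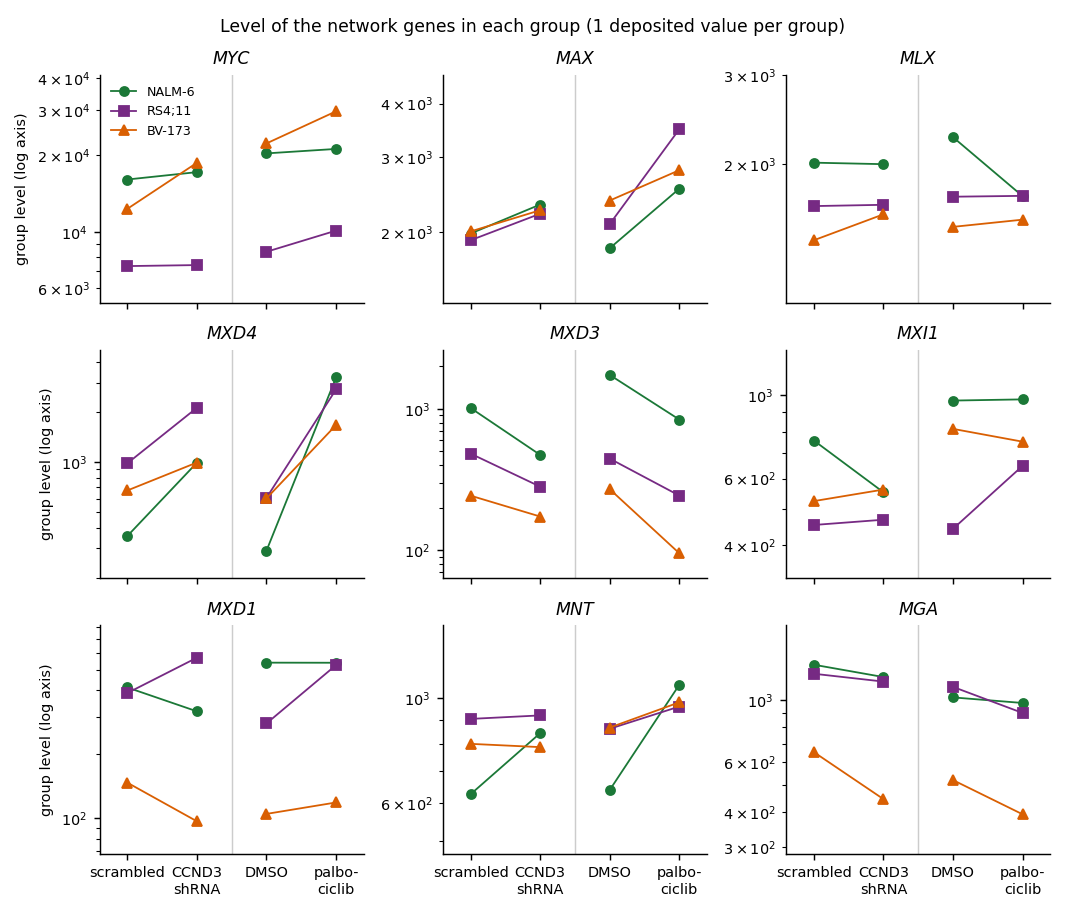
Level of the 9 network genes that were listed in every comparison (y axis, log scale, deposited level per group, a separate range in each panel) in the 4 groups of each line, with lines joining the 2 groups of 1 comparison. The treated point of *MXD4* is above its control in all 6 pairs, up to 3218 in NALM-6 with palbociclib, and that of *MXD3* is below in all 6, down to 94.9 in BV-173 with palbociclib.

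Over the 3 lines, 2 of the 9 network genes tested changed with palbociclib, beside 8.08% of all genes (1075 of 13307, of which 414, or 3.11% of all genes, were higher and 661, or 4.97%, lower). *MXD4*, an MXD repressor, rose by 2.37 ± 0.40 on the log2 scale (SE, n = 3 lines), 5.16-fold, with an adjusted p of 0.0429 (limma). *MXD3*, the MXD member of cycling cells, fell by 1.14 ± 0.18 on the log2 scale (SE, n = 3 lines), to 45.5% of DMSO, with an adjusted p of 0.0389 (limma). In bulk RNA of this kind, fewer cells in a given state and less RNA per cell cannot be told apart. With *CCND3* shRNA no network gene passed, beside 0% of all genes in the same limma fit, although 2957 genes had an unadjusted p under 0.05. The knockdown means of the same pair of genes were 1.05 ± 0.19 for *MXD4* (adjusted p = 0.0873) and -0.79 ± 0.15 for *MXD3* (adjusted p = 0.0886, both limma, SE, n = 3 lines). Both knockdown values passed with a limma prior that was both trended on the mean level and robust (445 genes called) and when genes under a mean level of 100 were left out (686 genes called). Both palbociclib calls were lost when any 1 of the 3 lines was left out, with adjusted p from 0.0583 to 0.138 for *MXD4* and from 0.0755 to 0.142 for *MXD3* (limma). The call of *MXD4* was also lost with a pseudocount of 10 (adjusted p = 0.0547, 849 genes called). The same held over all genes listed in the 3 palbociclib tables (adjusted p = 0.0503, 795 genes called, limma).

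The *MXD4* gene spans chr4:2247432-2262109 in GRCh38.p14. In NALM-6 its level was 357 with scrambled shRNA and 987 with *CCND3* shRNA, and it was 291 with DMSO and 3218 with palbociclib. In RS4;11 the corresponding levels were 978 and 2115, then 606 and 2729. In BV-173 they were 671 and 989, then 601 and 1663. Every treated group lay above its own control, by 1.47-fold to 2.76-fold with the shRNA and by 2.76-fold to 11.0-fold with palbociclib. With palbociclib, *MXD4* lay at the 98.5th to 99.9th percentile of log2 ratios in the 3 tables, and with the shRNA at the 96.4th to 99.4th. NALM-6 had the lowest control levels and the highest log2 ratios under both treatments, 1.47 and 3.46, while BV-173 had the lowest ratios, 0.56 and 1.47.

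The *MXD3* gene spans chr5:177305499-177312752. In NALM-6 its level was 1015 with scrambled shRNA and 472 with *CCND3* shRNA, and 1739 with DMSO and 839.9 with palbociclib. In RS4;11 the levels were 482 and 281, then 444 and 243. In BV-173 they were 243 and 172.8, then 269.8 and 94.9. All 6 treated groups lay below their own controls, at 46.6% to 71.3% with the shRNA and at 35.4% to 54.8% with palbociclib. The order of the lines differed between treatments: the knockdown ratio was lowest in NALM-6 (-1.10 on the log2 scale) and the palbociclib ratio was lowest in BV-173 (-1.50). With the shRNA the lines ranked alike by size for both genes, NALM-6 before RS4;11 before BV-173, whereas with palbociclib BV-173 had the smallest *MXD4* ratio and the lowest *MXD3* ratio.

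**Figure D2:**
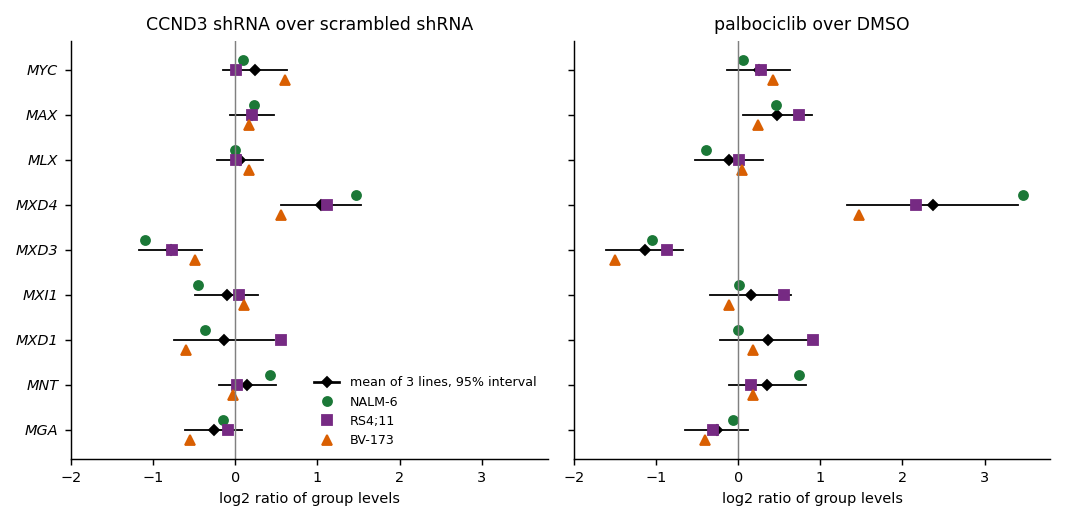
Log2 ratio of (level + 1), treated over control (x axis), for the 9 genes listed in every comparison, with 1 colored point per line and a black diamond with its 95% interval for the limma mean of 3 lines. With palbociclib the interval of *MXD4* runs from 1.32 to 3.41 and that of *MXD3* from -1.60 to -0.67. The palbociclib points of the other genes lie between -0.40 (*MGA* in BV-173) and 0.91 (*MXD1* in RS4;11). Among these, the interval of *MAX* runs from 0.06 to 0.90.

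The promoter windows of both genes are shown because they are the members that passed a test, beside those of *MNT* and *MLX*, the other members whose window holds the E-box. Sequences are from RefSeq (GRCh38.p14) and cover 250 bases before to 50 bases after the annotated start, 300 bases in all, written 5′ to 3′ on the strand of the gene. Capitals mark the E-box CACGTG, which is its own reverse complement. The *MXD4* window is chr4:2262060-2262359 (minus strand), the *MXD3* window chr5:177312703-177313002 (minus), the *MNT* window chr17:2401011-2401310 (minus) and the *MLX* window chr17:42566850-42567149 (plus).
MXD4: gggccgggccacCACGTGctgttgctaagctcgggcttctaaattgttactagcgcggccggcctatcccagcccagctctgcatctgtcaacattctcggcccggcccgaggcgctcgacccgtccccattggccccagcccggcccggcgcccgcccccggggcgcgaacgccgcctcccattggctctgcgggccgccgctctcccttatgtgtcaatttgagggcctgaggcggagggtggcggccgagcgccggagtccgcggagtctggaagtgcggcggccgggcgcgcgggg
MXD3: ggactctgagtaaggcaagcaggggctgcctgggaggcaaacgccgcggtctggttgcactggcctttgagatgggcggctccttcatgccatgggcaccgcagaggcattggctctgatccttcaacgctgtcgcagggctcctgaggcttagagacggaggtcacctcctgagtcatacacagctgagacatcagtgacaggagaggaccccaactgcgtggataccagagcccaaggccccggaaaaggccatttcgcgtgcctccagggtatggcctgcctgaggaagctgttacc
MNT: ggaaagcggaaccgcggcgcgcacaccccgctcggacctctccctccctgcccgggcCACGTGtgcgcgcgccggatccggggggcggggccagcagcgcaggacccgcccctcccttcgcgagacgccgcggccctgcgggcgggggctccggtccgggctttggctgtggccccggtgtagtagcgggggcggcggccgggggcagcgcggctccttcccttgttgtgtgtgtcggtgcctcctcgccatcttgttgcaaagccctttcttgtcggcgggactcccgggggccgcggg
MLX: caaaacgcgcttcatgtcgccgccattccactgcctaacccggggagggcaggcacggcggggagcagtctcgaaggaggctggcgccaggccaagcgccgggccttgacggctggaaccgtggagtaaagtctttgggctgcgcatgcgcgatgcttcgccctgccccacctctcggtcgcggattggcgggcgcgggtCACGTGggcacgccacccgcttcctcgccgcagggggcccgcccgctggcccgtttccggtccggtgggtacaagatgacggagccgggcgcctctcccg

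The E-box begins 238 bases before the start in *MXD4*, 193 bases before it in *MNT* and 50 bases before it in *MLX*, and the letters do not occur in the *MXD3* window. Of the 14 windows that 9 members have in the table, 3 hold CACGTG, against 7.26% of all 35116 windows. The E2F words TTTCCCGC, TTTGGCGC, TTTGCCGC and TTTCGCGC, searched on both strands, occur in 2 member windows, those of *MYCN* and *MGA*, against 3.31% of all windows. The CHR word TTTGAA, an element of genes repressed by the DREAM complex, occurs in the windows of *MYCN* and *MGA* as well, against 15.2% of all. The FOXO word GTAAACA occurs in 2 windows of *MXI1*, against 3.42% of all. None of these motifs contains another, and a match in this window says nothing of binding.

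The make-up of the MXD group differed between control and treated groups within each line. As a share of the summed level per kilobase of *MXD1*, *MXI1*, *MXD3* and *MXD4*, *MXD4* went in NALM-6 from 9.14% with scrambled shRNA to 33.5% with *CCND3* shRNA, and from 4.81% with DMSO to 47.7% with palbociclib. In RS4;11 its share was 34.3% and 57.7%, then 26.1% and 62.4%. In BV-173 it was 34.5% and 47.1%, then 27.7% and 59.7%. Between the 2 genes, *MXD3* had the larger share in NALM-6 with scrambled shRNA (61.7%), with *CCND3* shRNA (38.02%) and with DMSO (71.3%), and in RS4;11 with scrambled shRNA (38.9%) and with DMSO (44.5%). *MXD4* had the larger share in the other groups, among them all 3 with palbociclib. The ratio of *MXD4* to *MXD3* per kilobase went from 0.0674 to 1.54 in NALM-6, from 0.587 to 4.83 in RS4;11 and from 1.01 to 7.95 in BV-173 with palbociclib. With the shRNA the same ratio went from 0.148 to 0.880, from 0.882 to 3.27 and from 1.12 to 2.32. These ratios rest on the same levels as the fits above and are a description.

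**Figure D3:**
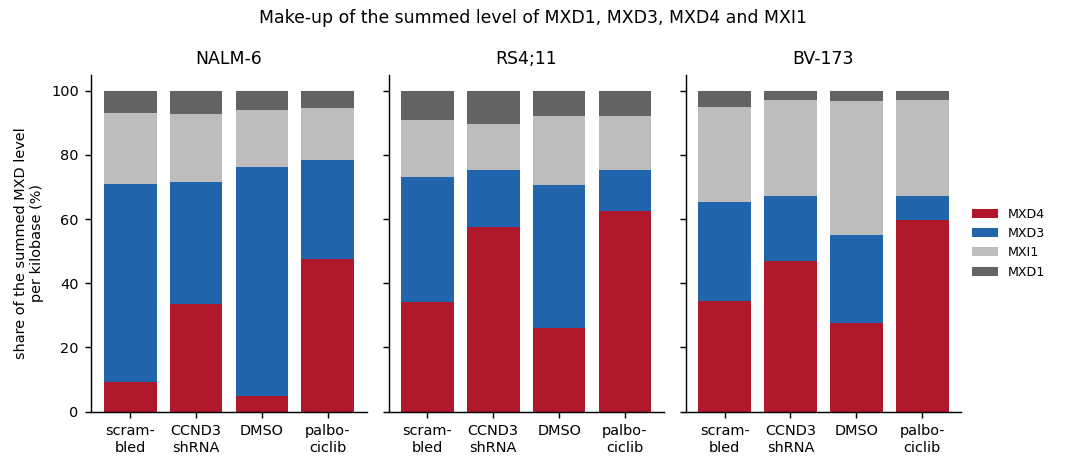
Stacked bars of the share (y axis, percent) that each of *MXD4*, *MXD3*, *MXI1* and *MXD1* has in the summed MXD level per kilobase, for the 4 groups of each line. The *MXD4* part reaches 47.7%, 62.4% and 59.7% with palbociclib in the panels of NALM-6, of RS4;11 and of BV-173, and the *MXD3* part is 30.9%, 12.9% and 7.51% there.

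The summed MXD level itself was less uniform. With the shRNA it went from 1034 to 781 per kilobase in NALM-6, from 756 to 972 in RS4;11 and from 516 to 557 in BV-173. With palbociclib it went from 1603 to 1790, from 616 to 1160 and from 575 to 739. Set against *MYC* per kilobase, the MXD sum was 35.7% in NALM-6 with DMSO and 38.2% with palbociclib, 33.3% and 51.8% in RS4;11, and 11.7% and 11.2% in BV-173. With the shRNA the same share was 29.1% and 20.6% in NALM-6, 46.6% and 59.3% in RS4;11, and 18.9% and 13.5% in BV-173. Set side by side over separately scaled tables, RS4;11 had the lowest *MYC* level per kilobase of the 3 lines and the highest MXD share in each of the shRNA groups and with palbociclib, while NALM-6 had the highest share with DMSO.

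*MYC*, the activator of the network, passed no test. In NALM-6 its level was 16043 with scrambled shRNA and 17149 with *CCND3* shRNA, and 20311 with DMSO and 21147 with palbociclib. In RS4;11 the levels were 7340.0 and 7408, then 8353 and 10112. In BV-173 they were 12309 and 18656, then 22226 and 29698. No treated group lay below its own control, and the excess ran from 1.01-fold to 1.52-fold, highest in BV-173 with the shRNA. The mean log2 ratio was 0.24 (95% interval from -0.15 to 0.63) with knockdown and 0.25 (from -0.14 to 0.64) with palbociclib, with adjusted p of 0.426 and 0.312 (limma). The 2 controls of BV-173 lay further apart than any treated pair. The *MYC* level with scrambled shRNA was 0.554 of that with DMSO, in tables scaled separately. The same ratio was 0.790 in NALM-6 and 0.879 in RS4;11. For *MXD3* this ratio of controls ran from 0.584 (NALM-6) to 1.09 (RS4;11), and for *MXD4* from 1.12 (BV-173) to 1.615 (RS4;11).

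*MAX*, the shared partner, was also above its control in each pair. Its levels with scrambled and *CCND3* shRNA were 1985 and 2321 in NALM-6, 1915 and 2209 in RS4;11, and 2008 and 2251 in BV-173. With DMSO and palbociclib they were 1834 and 2528, 2089 and 3484, and 2372 and 2793. The RS4;11 pair with palbociclib stood apart at 1.67-fold. The mean log2 ratio with palbociclib was 0.48 ± 0.16 (SE, n = 3 lines), with an unadjusted p of 0.0334 and an adjusted p of 0.130 (limma), and with knockdown it was 0.20 ± 0.11 (adjusted p = 0.336). *MLX*, the MAX-like factor, stood between 76.4% and 113% of its control, with the lowest value in NALM-6 with palbociclib (2259 and 1726) and adjusted p of 0.810 and 0.666 (limma, knockdown and palbociclib). *MYC* exceeded *MAX* per kilobase in all 12 groups, by 1.29-fold in RS4;11 with palbociclib up to 4.91-fold in NALM-6 with DMSO.

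Of the further MXD genes, *MXD1*, a repressor first described in differentiating cells, differed between lines. With the shRNA its level went from 413 to 319 in NALM-6, from 389 to 570.3 in RS4;11 and from 147 to 96.7 in BV-173. With palbociclib it was 541 and 539.9 in NALM-6, 279.6 and 526 in RS4;11 and 105 and 119 in BV-173. RS4;11 was the line with the highest ratio under both treatments, 1.47-fold and 1.88-fold. The 3 lines gave mean log2 ratios of -0.14 ± 0.24 with knockdown and 0.36 ± 0.22 with palbociclib (SE, n = 3 lines), with adjusted p of 0.781 and 0.330 (limma). *MXI1*, the MXD member also called MAD2, ranged from 73.0% of control in NALM-6 with the shRNA (757 and 552) to 147% in RS4;11 with palbociclib (442 and 649), with adjusted p of 0.741 and 0.617 (limma).

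*MNT*, a broadly expressed MAX partner that opposes MYC in growing cells, was highest in NALM-6 with palbociclib. Its levels there were 639 with DMSO and 1066 with palbociclib, 1.67-fold, and in the same line 626 and 842 with the shRNAs. In RS4;11 and BV-173 it stood between 98.4% and 113% of control under both treatments, and its mean log2 ratios were 0.14 ± 0.14 and 0.36 ± 0.18 (SE, n = 3 lines; adjusted p = 0.587 and 0.251, limma). *MGA*, a scaffold of the Polycomb complex PRC1.6 that also pairs with MAX, stood below control in all 6 pairs, at 68.0% to 95.5%. Its lowest ratios were those of BV-173, where the level was 653 and 444 with the shRNAs and 519 and 392 with DMSO and palbociclib. The mean log2 ratios of *MGA* were -0.26 with both treatments (adjusted p = 0.329 and 0.294, limma).

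Direction was shared over the 6 comparisons by 5 of the 9 genes. *MYC*, *MAX* and *MXD4* lay above control in all 6, as did 12.5% of the 13307 genes, and *MXD3* and *MGA* lay below control in all 6, as did 15.3%. None of the 9 was past 1.5-fold in all 6, which 38 genes were upwards and 208 downwards. The share of all genes past 1.5-fold differed between comparisons, and network genes were read against it. In NALM-6 with the shRNA *MXD4* was past 1.5-fold upwards, as were 7.14% of genes, and *MXD3* downwards, as were 8.11%. In RS4;11 with the shRNA the same 2 genes were past it, beside 8.86% of genes upwards and 9.1% downwards. In BV-173 with the shRNA *MYC* was past it upwards and *MXD1* downwards, beside 3.12% and 4.32% of genes. In NALM-6 with palbociclib *MXD4* and *MNT* were past it upwards and *MXD3* downwards, beside 18.6% and 14.1% of genes. In RS4;11 with palbociclib *MAX*, *MXD1* and *MXD4* were past it upwards and *MXD3* downwards, beside 14.9% and 13.7% of genes. In BV-173 with palbociclib *MXD4* was past it upwards and *MXD3* downwards, beside 12.5% and 11.4% of genes.

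The knockdown and palbociclib effects were compared within each line, although the exposures lasted 4 and 3 days. No network gene passed this test, beside 0% of all genes, with 2824 genes at an unadjusted p under 0.05 (limma). *MXD4* had a smaller log2 ratio with the shRNA than with palbociclib in 3 of 3 lines. The difference, knockdown less palbociclib, was -1.32 ± 0.25 on the log2 scale (SE, n = 3 lines, adjusted p = 0.110), and it passed under 1 alternative, a prior both trended on the mean level and robust (adjusted p = 0.0413, limma). *MXD1* also had a smaller ratio with the shRNA in 3 of 3 lines, with a difference of -0.50 ± 0.15, an unadjusted p of 0.0220 and an adjusted p of 0.176 (limma). The difference for *MXD3* was 0.35 with a 95% interval from -0.29 to 0.99, and that for *MYC* was -0.01 with an interval from -0.40 to 0.37. These intervals do not show that the treatments acted alike.

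Genes with the most similar course over the 6 comparisons were sought by the Euclidean distance of log2 ratios among 10074 genes with a mean level of at least 100. Nearest to *MXD4* were *IDUA* (distance 0.866), *TARSL2* (1.24) and *ARSD* (1.36), where the median gene lay at 4.82. Nearest to *MXD3* were *GPD2* (0.343), *DCK* (0.479) and *RPS6KA5* (0.491), with a median of 2.59. *IDUA* encodes a lysosomal enzyme, and *DCK* encodes deoxycytidine kinase of the nucleoside salvage pathway. Nearest to *MYC* were *NDUFA13* (0.217), *CTU1* (0.218) and *LRFN4* (0.229), with a median of 1.201.

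Genes around the network were grouped by role. Of 6 related factors listed in every comparison none passed, beside 0% of all genes with knockdown and 8.08% with palbociclib. Their median log2 ratios were 0.28 with knockdown and 0.26 with palbociclib, beside 0.01 and 0.03 for all genes. Highest were *TFE3* (0.46) and *TFEB* (0.44) with knockdown, and *MLXIP*, which encodes MondoA (0.42), and *USF1* (0.39) with palbociclib. *MITF* (-0.02) and *USF1* (0.10) were lowest with knockdown, as were *USF2* (-0.11) and *TFEB* (-0.04) with palbociclib. *MYCL* was listed in 4 comparisons at levels up to 57.5, and *MLXIPL* in 2 at levels up to 0.506. *TXNIP* and *ARRDC4*, arrestin-like targets of MondoA and MLX, had mean log2 ratios of 0.60 and 1.03 with knockdown and of 0.71 and 1.21 with palbociclib, and neither passed, the lowest adjusted p being 0.0534 for *ARRDC4* with palbociclib (limma).

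Cofactors and regulators of MYC numbered 23. With palbociclib 3 were called lower, beside 4.97% of all genes, and none was called higher, beside 3.11%. With knockdown none passed, as among all genes. The medians were -0.19 with knockdown and -0.33 with palbociclib. *AURKA*, a mitotic kinase that also stabilizes MYC family proteins, fell by 2.47 on the log2 scale (adjusted p = 0.0358). *CIP2A*, an inhibitor of the phosphatase PP2A, fell by 2.33 (adjusted p = 0.0352), and *ACTL6A*, an actin-related chromatin subunit, fell by 1.06 (adjusted p = 0.0381, all limma). *PIM1*, a kinase gene, had the lowest mean with palbociclib at -3.06 without passing (adjusted p = 0.112, limma). Its ratios there were -4.08 in NALM-6 and -4.91 in RS4;11, but -0.20 in BV-173. With knockdown *PIM1* stood at -1.05, and *CIP2A* was lowest at -1.25. *KAT2A* and *GSK3B* had the highest means under both treatments, 0.28 and 0.20 with knockdown and 0.45 and 0.62 with palbociclib.

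The corepressors of the MXD proteins and MNT numbered 14. With palbociclib 3 were called lower, beside 4.97% of all genes, and none was called higher, beside 3.11%. None passed with knockdown, as among all genes, and the list had medians of -0.28 and -0.38 (knockdown and palbociclib). The 3 were *RBBP7*, a histone chaperone (-1.22, adjusted p = 0.0346), *SAP30*, a subunit of the SIN3 complex (-1.03, adjusted p = 0.0352), and *ING2*, a reader of methylated histone H3 (-0.79, adjusted p = 0.0498, all limma). *SIN3B*, a scaffold that MXD proteins contact directly, had the highest mean of the list under both treatments, 0.43 and 0.47, and its paralog *SIN3A* had -0.50 and -0.60, with no call for either. *ARID4A* (0.15, knockdown) and *HDAC1* (0.15, palbociclib) were the second highest, and *ING2* (-0.61) and *RBBP7* (-0.61) were lowest with knockdown. Of the 11 PRC1.6 partners of MGA, with medians of -0.23 and -0.41, 1 was called lower with palbociclib, beside 4.97% of all genes. This was *PCGF6*, which defines the complex (-1.19, adjusted p = 0.0372, limma). *TFDP1* (-0.72) followed it, *L3MBTL2* (0.47) and *RING1* (0.02) were highest with palbociclib, and *CBX1* (-0.51), *E2F6* (-0.43), *RYBP* (0.09) and *YAF2* (0.03) marked the ends of the list with knockdown.

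Textbook targets activated by MYC numbered 39, all listed in every comparison. With palbociclib 2 were called lower, a share near the 4.97% of all genes that were. These were *SHMT2* of serine and folate metabolism (-1.33, adjusted p = 0.0447) and *TERT*, the telomerase catalytic subunit (-1.03, adjusted p = 0.0420, both limma). With knockdown none passed, as among all genes. The list medians were -0.05 with knockdown and -0.17 with palbociclib, beside 0.01 and 0.03 for all genes. With palbociclib 16 of the 39 means were above 0 and 23 below, and with knockdown 17 and 22. *CCND2*, the cyclin D2 gene, had the highest mean with palbociclib (1.92, adjusted p = 0.0582) and *SRM*, spermidine synthase, the next (0.52). With knockdown *IMPDH2* (0.38) and *SRM* (0.34) were highest, and *TERT* (-0.86) and *TFRC*, the transferrin receptor (-0.62), were lowest. Of 10 genes repressed by MYC, 6 were listed in every comparison, with medians of -0.18 and -0.47. None of the 6 passed, beside 0% of all genes with knockdown and 8.08% with palbociclib. *CEBPA* (0.27 and 0.64) and *NDRG1* (0.20 and 0.42) were highest, *CDKN2C* (-0.66 and -1.64) was lowest under both treatments, and next to it stood *CDKN1B* (-0.24) with knockdown and *CDKN1A* (-0.66) with palbociclib.

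**Figure D4:**
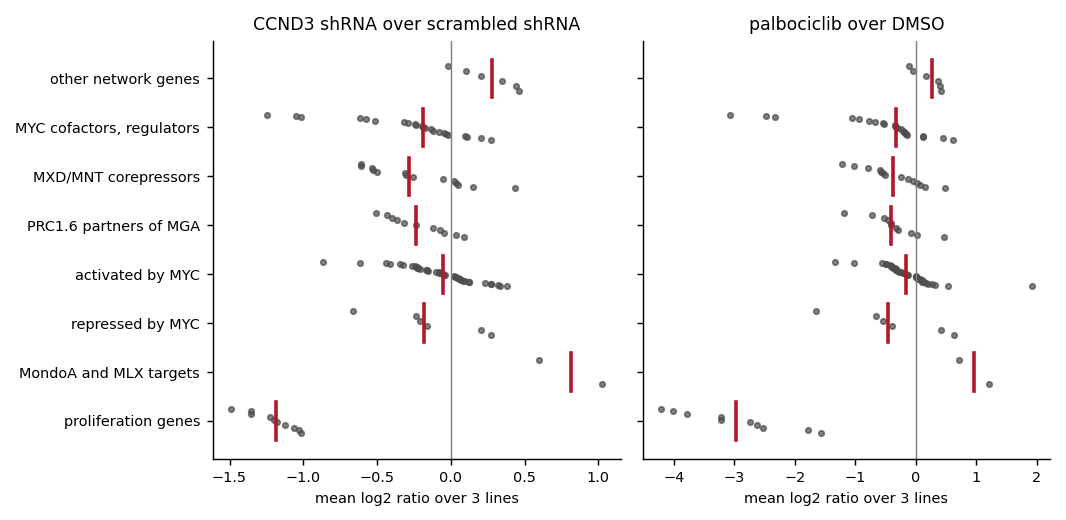
Mean log2 ratio over the 3 lines (x axis, a different range in each panel) of every gene of 8 lists, with 1 gray point per gene and a red bar at the list's median. Targets activated by MYC center near 0 (medians of -0.05 and -0.17), and the 10 proliferation genes lie at -1.19 and -2.98 in the median.

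Proliferation genes were examined beside *MXD3* and *MXD4*. All 10 had means below 0 under both treatments, with medians of -1.19 for knockdown and -2.98 for palbociclib. Of them 7, *CCNA2*, *CCNB1*, *CDK1*, *MCM2*, *MCM5*, *PCNA* and *E2F1*, were called lower with palbociclib, beside 4.97% of all genes (limma). With knockdown none passed, as none of all genes did. *MKI67* (-1.49 and -4.21) was lowest under both treatments, followed by *E2F1* (-1.36) with knockdown and by *TOP2A* (-4.02) with palbociclib, of which *E2F1* was called, with palbociclib. The highest were *MCM5* (-1.01) and *CCNB1* (-1.03) with knockdown and *MCM2* (-1.57) and *MCM5* (-1.79) with palbociclib. In BV-173 with the shRNA 4 of the 10 were past 1.5-fold downwards, and in each of the other 5 comparisons all 10 were. Their part in the *MXD3* and *MXD4* values was not tested.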

How the data were processed

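RNA-seq of poly(A) RNA from 34 samples in 12 groups was analysed as labelled, each treatment against its own control in the same line. According to the series' design text and the submitters' processing notes, the authors filtered reads with SOAPnuke, used Bowtie2 for alignment to hg38 and RSEM for quantification, and tested pairs of groups in DESeq2, with versions not given in the sources used here. The deposited tables hold, per comparison, 1 signal value per group (a level on a scale shared by that pair; how samples were combined and whether counting used strand are not given), the gene length, and the authors' log2 fold changes and p-values, which were not used. Signal values carry no SD, and depth per sample is unknown, so the precision is set by the number of lines.

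Log2 ratios of (level + 1) within each table were fitted with limma 3.58.1 (R 4.3.3, intercept over 3 lines, empirical Bayes) for genes listed in all 6 tables, with Benjamini-Hochberg adjustment and calls at adjusted p under 0.05. The same fit of the difference between treatments within a line compared the treatments. The lines are different leukemias, so p-values measure the spread between lines and not between samples of a line. Past 1.5-fold in 1 line is a description. Levels per kilobase used the gene length deposited in each table. Tables were scaled separately, so levels of different tables were only set side by side.

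The 10 members and the gene lists were chosen with earlier results of these data known. All members were named, and of each list of network, target and proliferation genes the 2 highest and 2 lowest means per treatment. Marker lists were given by counts and levels. Genes that passed a test outside those were named after their values were seen. A marker gene of the lists is not reported here. *MYC* and the members with the highest and lowest mean ratio each got the 3 nearest genes. Alternatives were pseudocounts of 0 and 10, a mean level of at least 100, centring on the median gene, a trended robust prior, leaving out each line, a fold demand, and genes listed in 3 tables. The fit was tested on simulated data. Gene positions and promoter windows are those of RefSeq (GRCh38.p14), in which 9 of the 10 members had a window. Python 3.11.15, numpy 2.4.6, pandas 2.3.3 and matplotlib 3.10.9 were used.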

Additional observations from a re-analysis of the deposited data

Results flagged for a closer look

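With *CCND3* shRNA, *MXD1* moved in opposite directions between lines by more than 1.2-fold each. Its log2 ratio was 0.55 in RS4;11, against -0.60 in BV-173 and -0.37 in NALM-6. Each value rests on 1 level per group, so the difference between the lines was not tested.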

How the results depend on the processing

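No paired analysis was possible because the tables hold 1 value per group and their columns carry no replicate numbers. *MXD4* and *MXD3* kept their direction in both treatments under every alternative, with adjusted p from 0.0207 to 0.138 (*MXD4*) and from 0.0186 to 0.142 (*MXD3*) for palbociclib and from 0.0347 to 0.312 and from 0.0374 to 0.319 for knockdown (limma). Some uncalled means changed sign when a line was left out. They were those of *MXI1*, *MXD1* and *MLX* with knockdown, and of *MXI1* and *MLX* with palbociclib. For the difference of treatments they were those of *MYC* and *MGA*, and that of *MGA* also changed sign on centring. The *MYC* means of each treatment stayed above 0. With a trended robust prior, knockdown called 445 genes (0 before) and 2 network genes, palbociclib 1653 genes (1075 before), and the difference of treatments 379 genes (0 before) and 1 network gene. With a mean level of at least 100 the counts were 686 genes and 2 network genes for knockdown, 1728 genes for palbociclib and 267 genes for the difference. In palbociclib, 1 network gene (*MXD3*) instead of 2 passed with a pseudocount of 10 (*MXD4* at adjusted p = 0.0547) and with genes listed in 3 tables (*MXD4* at adjusted p = 0.0503, limma). The calls over all genes were also fewer there, 849 of 13307 and 795 of 13788, against 1075 of 13307 before. Leaving out a line left from 0 to 276 genes called with palbociclib, 0 without NALM-6 or RS4;11 and 276 without BV-173, and from 0 to 0 network genes; only 2 lines then entered. The mean of *MXD4* was between 1.82 and 2.82 and that of *MXD3* between -1.27 and -0.96 in these fits. At 2-fold instead of 1.5-fold, 1 network gene was past the limit in RS4;11 with knockdown (2 before) and 0 in BV-173 with knockdown (2 before). With palbociclib there were 2 in NALM-6 (3 before) and 1 in RS4;11 (4 before). With a pseudocount of 10 there was 1 in BV-173 with knockdown. The shares of all genes at these settings are not given, so the counts cannot be read as particular to the network genes.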
